A study of Mus musculus with 6 samples.

Results

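The 3 genes described here, BC024139, BC024386 and 5830473C10Rik, are liver transcripts that still carry the names of cDNA clones and on which little has been written. They were the rows of the count table with these symbols, 3 of 52459, picked on their raw counts because they separated the livers of mice with a guide RNA against Prdx2 (sgPrdx2) from those with a control guide RNA (sgCtrl) among the smallest p-values of a test on the raw counts. All 3 passed the filter on low counts, as did 17032 genes in all. Their difference between the groups is therefore given as a description, without a test.

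RNA-Seq was performed on whole livers of 6 male Alb-Cre/Cas9 mice of the strain labelled C57BL6J, 3 per group, at the labelled age of 8 months. Each mouse received an AAV8 vector with the U6 promoter driving sgCtrl or sgPrdx2 at 4 to 5 weeks of age, then after 3 weeks a dose of 100 mg/kg DEN (diethylnitrosamine, a carcinogen that acts on hepatocytes), and from 1 week after that 6 months of CDA-HFD (a high-fat diet without choline that causes fatty liver disease), so the controls carried the same Cre and Cas9 alleles, carcinogen and diet. The Cre was driven by the albumin promoter, which restricted Cas9 to hepatocytes, and the study describes islets of PRDX2-positive cells that it takes to be nontransduced. The sgCtrl livers came from mice 5.1, 7.1 and 7.2 and the sgPrdx2 livers from mice 1.1, 1.3 and 3.2.

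As background, BC024139 is annotated as a protein-coding gene and BC024386 as a long noncoding RNA, a class of transcripts that are spliced like messenger RNA but have no long reading frame. 5830473C10Rik belongs to the albumin gene family and RefSeq lists it as Albfm1. The albumin family encodes proteins that hepatocytes secrete into plasma, where albumin (Alb) carries fatty acids and many drugs, afamin (Afm) binds vitamin E, and the vitamin D binding protein (Gc) carries vitamin D, while alpha-fetoprotein (Afp) is the main plasma protein of the fetal liver and is a marker of liver tumors. Transcription of such genes in hepatocytes depends on factors that include HNF1, HNF4 and the FOXA proteins.

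In the GENCODE annotation of GRCm38, BC024139 occupies chr15:76119517-76126596 on the minus strand, with 5 transcripts of 4 to 16 exons. The longest reading frame of its coding transcripts holds 772 residues, and no other coding gene gave a related protein at a blastp E value of at most 1e-10. BC024386 occupies chr7:140906014-140907983 on the plus strand and has 6 transcripts, 4 of them lincRNAs and 2 with a retained intron. Their longest reading frames held only 56 to 101 residues. 5830473C10Rik occupies chr5:90561107-90597871 on the plus strand, with 2 coding transcripts of 8 to 14 exons and a reading frame of 620 residues. Its closest relative was Afp, with 37.7% of aligned residues identical, followed by Alb with 34.1%, Afm with 33.6% and Gc with 21.4%. The gene is the last of the family in a row on chromosome 5 in which Alb and Afp lie 14134 bases apart, Afp and Afm 10024 bases, and Afm and 5830473C10Rik 7563 bases, whereas Gc lies 1002998 bases on the other side of Alb.

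The promoters of BC024386 and 5830473C10Rik are shown beside those of Alb and Afm, which are relatives of 5830473C10Rik only. They are shown because an HNF1 motif can be seen in all of them, so its presence in those shown follows from this choice. Each window, taken from RefSeq on GRCm38.p6, runs from 250 bases before to 50 bases after the RefSeq start. That start need not be the GENCODE start given above. The windows are written 5′ to 3′, on the plus strand, at chr7:140905771-140906070 for BC024386, chr5:90560959-90561258 for 5830473C10Rik, chr5:90460620-90460919 for Alb and chr5:90518699-90518998 for Afm. Capitals mark matches to the motifs searched on both strands. These were a part of the HNF1 site (GTTAAT, called the HNF1 motif here), the TATA box (TATAAA), a short and a long HNF4 motif (AGGTCA and CAAAGTC), the CCAAT box and the FOXA motif (TGTTTAC or TGTTTGC).
BC024386: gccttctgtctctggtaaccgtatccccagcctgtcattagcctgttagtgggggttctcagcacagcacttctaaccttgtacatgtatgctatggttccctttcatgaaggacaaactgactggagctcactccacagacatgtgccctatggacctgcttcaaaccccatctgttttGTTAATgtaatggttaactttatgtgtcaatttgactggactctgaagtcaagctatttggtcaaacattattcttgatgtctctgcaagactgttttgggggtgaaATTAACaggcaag
5830473C10Rik: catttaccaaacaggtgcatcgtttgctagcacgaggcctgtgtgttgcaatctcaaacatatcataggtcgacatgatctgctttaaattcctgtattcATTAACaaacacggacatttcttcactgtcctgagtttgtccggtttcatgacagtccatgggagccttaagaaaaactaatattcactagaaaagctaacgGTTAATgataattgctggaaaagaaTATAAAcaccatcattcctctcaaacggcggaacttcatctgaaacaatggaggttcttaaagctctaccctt
Alb: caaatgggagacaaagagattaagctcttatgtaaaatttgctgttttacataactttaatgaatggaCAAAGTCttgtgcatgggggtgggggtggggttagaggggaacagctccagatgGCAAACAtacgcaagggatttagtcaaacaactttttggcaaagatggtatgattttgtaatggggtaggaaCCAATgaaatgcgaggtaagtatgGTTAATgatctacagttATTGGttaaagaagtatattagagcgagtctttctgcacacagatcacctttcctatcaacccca
Afm: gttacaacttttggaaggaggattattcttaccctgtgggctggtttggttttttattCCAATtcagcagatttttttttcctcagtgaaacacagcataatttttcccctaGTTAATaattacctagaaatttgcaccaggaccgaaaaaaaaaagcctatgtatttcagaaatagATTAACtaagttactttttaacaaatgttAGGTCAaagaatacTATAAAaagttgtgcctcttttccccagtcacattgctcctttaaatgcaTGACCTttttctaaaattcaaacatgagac

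The HNF1 motif occurred in both of these windows and in the windows of all 4 other family members, Afp and Gc included, against 7.1% of the 32851 RefSeq promoter windows of the same length. In BC024386 its first base lay at position -70 on the plus strand, and a second copy lay at position 38 on the opposite strand, counted with the start as position 1. In 5830473C10Rik the copies lay at positions -48 and, on the opposite strand, -150, and a TATA box, held by 13.6% of windows, lay at position -23. These positions count from the RefSeq start. The GENCODE gene begins before it, at 90561107, so the copy at -48 and the TATA box lie inside that gene body. Neither window held a match to the HNF4, CCAAT or FOXA letters, which were found in 16.3% (AGGTCA), 4.44% (CAAAGTC), 37.4% and 8.48% of all windows. These matches describe the letters only, and binding was not measured.

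Total counts per liver were 37462102 to 56865293, at which 3 counts, taken as the smallest detected number, stand for 0.0555 to 0.0921 normalised CPM (a count relative to the total of its library, scaled by edgeR's TMM method). Prdx2 itself was read at 109, 117 and 132 CPM in the sgCtrl and 99.0, 112 and 149 CPM in the sgPrdx2 livers (log2 fold change 0.01, SE 0.18, adjusted p = 0.983), so the RNA level does not show the edit, and the groups follow the labels. The study stained livers of these groups for the protein, which was not analysed here. On the first principal component (44.9% of the variance) sgPrdx2 liver 3.2 lay farthest out, at 61.0 against 10.9 and 19.7 in the other sgPrdx2 livers. The TMM factors ran from 1.12 to 1.17 in the control group and from 0.805 to 0.951 in the other, and Alb took 6.61% to 7.01% and 9.28% to 11.3% of all counts. The hepatocyte markers Alb and Hnf4a were present in every liver, at 58814 CPM or more for Alb.

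All 3 genes were higher in every sgPrdx2 liver than in any sgCtrl liver. The fitted fold between the groups was 3.51 for BC024139, 2.95 for BC024386 and 2.43 for 5830473C10Rik, and the smallest fold between any sgPrdx2 and any sgCtrl liver was 2.61, 2.21 and 2.05. Of the 17032 genes tested, 16.7% had groups without overlap in this direction (34.2% in either) and 1.79% were called higher at an adjusted p under 0.05 (3.33% in either direction, 1.54% lower), and since the same contrast chose the 3 genes nothing is read from their count. Over all genes tested the median log2 fold change was -0.02, and 305 were called higher and 262 lower, against 206 and 3041 with libraries scaled to total counts, 116 and 1521 with 6 housekeeping genes, and 38 and 13111 with hepatocyte markers. To set beside the lists below, 2208 of the 17032 genes were higher and 2033 lower at an unadjusted p under 0.05. DESeq2 called 1162 higher and 886 lower. Calls of other genes below lie close to the threshold, and without sgCtrl liver 5.1, sgCtrl liver 7.2, sgPrdx2 liver 1.1 or sgPrdx2 liver 1.3 edgeR called 0 genes. In whole liver, a difference in the number of hepatocytes cannot be told apart from a difference in RNA per hepatocyte.

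BC024139 was read at 162, 201 and 201 counts in sgCtrl livers 5.1, 7.1 and 7.2 and at 613, 631 and 539 counts in sgPrdx2 livers 1.1, 1.3 and 3.2. Normalised, its level was 3.70, 4.47 and 3.82 CPM against 13.97, 11.7 and 16.6 CPM. The sgCtrl livers lay close together and the groups did not overlap, with the lowest sgPrdx2 liver, 1.3, 2.61-fold above the highest sgCtrl liver, 7.1. The means were 4.00 ± 0.414 and 14.1 ± 2.44 CPM (SD, n = 3 each), a log2 fold change of 1.81 with an SE of 0.18. Of the 3 it was the most weakly expressed, and the 95% Wilson interval of its share of all counts, which covers counting error only, was 3.71 to 5.04 unnormalised CPM in sgCtrl liver 5.1 and 12.2 to 14.5 unnormalised CPM in sgPrdx2 liver 3.2. Per kilobase of exon its level was 0.876 ± 0.0906 RPKM in sgCtrl and 3.08 ± 0.535 RPKM in sgPrdx2 livers, which moved it from the 26.3 to the 51.4 percentile of the genes tested that have a length. Eppk1, the epiplakin gene on the same strand, covers 14.9% of its exon bases and shares 12.9% of its 50-base stretches. Counts of Eppk1 were not used here, so its part in the reads of BC024139 was not tested.

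BC024386, the noncoding RNA, was by far the most abundant. It was read at 4410, 5975 and 5239 counts in the sgCtrl and at 15966, 17675 and 9579 counts in the sgPrdx2 livers, in the order of mice above. These are 101, 133 and 99.7 CPM against 364, 327 and 294 CPM. Again no liver crossed over, the lowest sgPrdx2 liver being 3.2, the one that stood apart in the principal components. Its means were 111 ± 18.9 and 328 ± 34.8 CPM (SD, n = 3 each), a log2 fold change of 1.56 with an SE of 0.17. At 66.1 ± 11.2 and 195 ± 20.7 RPKM it stood at the 96.2 percentile of genes in the sgCtrl and the 98.4 percentile in the sgPrdx2 livers. None of its 50-base stretches occurred in another annotated transcript, and no annotated gene overlapped it.

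5830473C10Rik was read at 1521, 2022 and 2117 counts in the sgCtrl and at 4045, 5062 and 3444 counts in the sgPrdx2 livers. These are 34.7, 45.0 and 40.3 CPM against 92.2, 93.6 and 106 CPM, again without overlap and with liver 3.2 the highest. The means were 40.0 ± 5.12 and 97.2 ± 7.48 CPM (SD, n = 3 each), a log2 fold change of 1.28 with an SE of 0.14. Its level per kilobase of exon was 13.7 ± 1.75 and 33.3 ± 2.56 RPKM, the 82.7 and the 90.9 percentile. The antisense transcript Gm42109 covers 7.09% of its exon bases but had at most 3 counts in any liver.

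**Figure D1:**
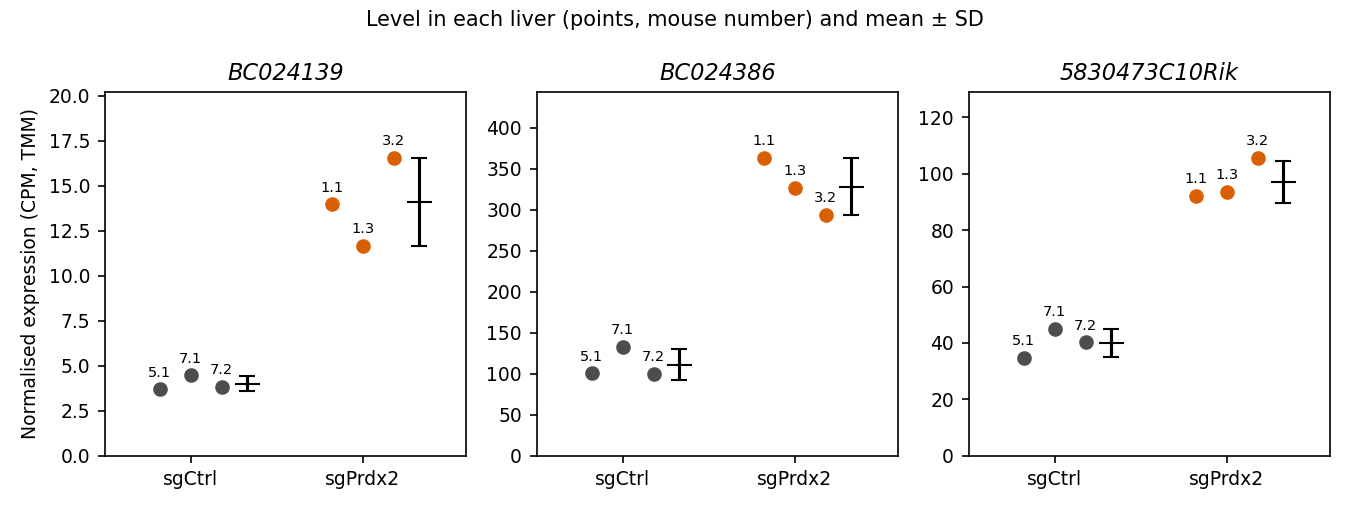
Normalised expression (CPM, linear axes starting at 0) of BC024139, BC024386 and 5830473C10Rik in each liver, with the mouse number above each point and the mean ± SD (n = 3) beside each group. For each gene the 3 sgPrdx2 livers sit above the 3 sgCtrl livers, and liver 3.2 is the highest sgPrdx2 liver for BC024139 and 5830473C10Rik but the lowest for BC024386.

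Among the 17032 genes, BC024139 stood at place 2, BC024386 at place 7 and 5830473C10Rik at place 11 in the order by p on which they were chosen, so these places restate the choice, and by log2 fold change they stood at ranks 49, 90 and 191. Gpx6, a glutathione peroxidase, preceded them all by p, with a log2 fold change of 2.57 (SE 0.19), and Pipox, the peroxisomal sarcosine oxidase, came just after the last, at 1.27 (SE 0.15). Among the 500 clone-named genes with 1 CPM or more on average, the 3 genes held places 3, 4 and 8 by log2 fold change, in the contrast that chose them. Of the 805 other genes with clone names that were tested, 18 were called higher, which is 2.24%, near the 1.79% of all genes, and 4 were called lower, with a median log2 fold change of 0.13. Those called with the smallest p were 1810059H22Rik (log2 fold change 1.16, SE 0.16, adjusted p = 0.0328), 4833411C07Rik (1.11, SE 0.17, adjusted p = 0.0358) and 0610005C13Rik (1.03, SE 0.16, adjusted p = 0.0358).

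Among the relatives of 5830473C10Rik, 2 of 4 passed the test. Alb rose from 60214 ± 2051 to 117782 ± 17469 CPM (log2 fold change 0.97, SE 0.20, adjusted p = 0.0472), and Afm rose from 132 ± 25.0 to 265 ± 44.8 CPM (1.002, SE 0.20, adjusted p = 0.0455). Gc, at 6005 ± 453 and 8632 ± 1261 CPM, did not pass the test (0.52, SE 0.18, adjusted p = 0.130). It was called higher by DESeq2 (0.53, adjusted p = 0.0198) and lower with libraries scaled to the hepatocyte markers (-0.43, adjusted p = 0.0146). Afp was low and its groups overlapped, at 8.34, 5.00 and 9.55 CPM in the sgCtrl and 4.49, 7.53 and 8.81 CPM in the sgPrdx2 livers (-0.14, SE 0.31, adjusted p = 0.802), and its sign turned without sgCtrl liver 7.2 or sgPrdx2 liver 1.1. With hepatocyte scaling Afp was called lower (-1.08, adjusted p = 0.0124), and with total counts or housekeeping genes it differed by -0.52. Hepatocyte scaling called 13111 genes lower and put the median of all genes tested at -0.95. The lower calls of Gc and Afp are therefore not particular to these genes. With total counts or housekeeping genes that median was -0.39. Neither Alb nor Afm was called when any 1 liver was left out, although their log2 fold changes were then 0.91 to 1.104 and 0.85 to 1.15. Nor were they called with scaling to housekeeping genes (0.58 and 0.62) or hepatocyte markers (0.02 and 0.05), and Alb lost its call when 10 counts were required in each of the livers (adjusted p = 0.0571). Alb is itself among the markers summed for the hepatocyte scaling. It averaged 60214 CPM in the sgCtrl livers, where that sum was 100831 to 108541 CPM. Its value of 0.02 therefore follows largely from the scaling, and nothing is read from it. Per kilobase of exon, the sgCtrl levels ran from Alb at 25711 RPKM through Gc at 3255, Afm at 43.6 and 5830473C10Rik at 13.7 to Afp at 2.27 RPKM, with no overlap between the livers of neighbours in that order. For each read of Afm, 5830473C10Rik had 0.336, 0.304 and 0.276 reads in the sgCtrl and 0.336, 0.432 and 0.347 reads in the sgPrdx2 livers, so the groups of this ratio touched.

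Set against Alb, itself higher in the sgPrdx2 livers, the 3 genes differed by smaller amounts. Per 1000 reads of Alb, BC024139 had 0.0625, 0.0715 and 0.0650 reads in the sgCtrl and 0.109, 0.120 and 0.129 reads in the sgPrdx2 livers. BC024386 had 1.70, 2.12 and 1.69 reads against 2.85, 3.35 and 2.298 reads. 5830473C10Rik had 0.586, 0.719 and 0.685 reads against 0.722, 0.959 and 0.826 reads. The means differed by 1.80-fold, 1.54-fold and 1.26-fold, and for 5830473C10Rik the lowest sgPrdx2 liver, 1.1, was almost level with the highest sgCtrl liver, 7.1.

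Hepatocyte genes as a group were also higher. Of the 19 hepatocyte markers tested, 12 were called higher by edgeR (0 to 6 when 1 liver was left out), and 16 were higher at an unadjusted p under 0.05 and 16 by DESeq2. By each of these criteria 0 were lower, with a median log2 fold change of 0.97, and their summed level was 100831 to 108541 CPM in the sgCtrl and 172595 to 234847 CPM in the sgPrdx2 livers. The highest was Hpd, an enzyme of tyrosine breakdown, at 1.46 (SE 0.28, adjusted p = 0.0430). No marker exceeded BC024139 or BC024386, and 3 of 19 exceeded 5830473C10Rik in log2 fold change. Since the same contrast chose the 3 genes, nothing is read from these places. Of the 12 pericentral hepatocyte genes 1 was called higher by edgeR, Cyp2e1 (0.96, SE 0.18, adjusted p = 0.0409), and of the 12 periportal genes 0 were called in either direction, with medians of 0.65 and 1.18. At an unadjusted p under 0.05, 9 of each list were higher, and by DESeq2 6 pericentral and 7 periportal genes. The lists were not tested against each other. The part of the hepatocyte share in the levels of the 3 genes was not tested.

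**Figure D2:**
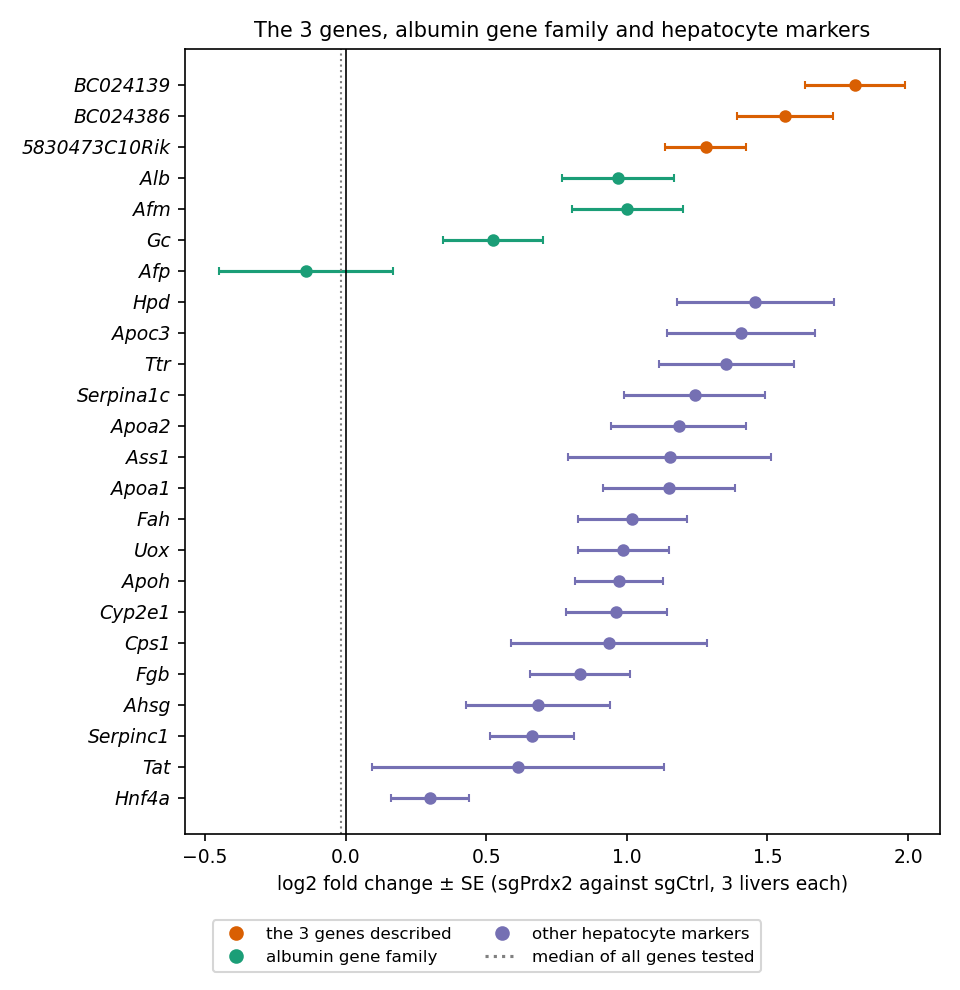
Log2 fold change of sgPrdx2 against sgCtrl livers with its SE (3 livers per group) for the 3 genes, the albumin gene family and other hepatocyte markers, with the median of all genes tested as a dotted line. BC024139 (1.81) and BC024386 (1.56) lie to the right of each marker shown, 5830473C10Rik (1.28) lies among the highest, and Afp (-0.14) lies near 0. The 3 genes were chosen on this contrast, so nothing is read from their places.

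Markers of other cell types were lower or little different beside these. The summed level of the 8 macrophage markers was 782 to 1202 CPM in the sgCtrl and 604 to 650 CPM in the sgPrdx2 livers, that of the 8 stellate cell markers 1304 to 1838 and 1052 to 1096 CPM, and that of the 8 cholangiocyte markers 1679 to 1906 and 1263 to 1447 CPM. The 8 endothelial markers summed to 254 to 283 and 175 to 263 CPM, the 8 lymphocyte markers to 25.7 to 34.0 and 24.2 to 30.6 CPM, the neutrophil markers, of which 5 were tested, to 22.1 to 29.9 and 19.9 to 23.8 CPM, and the 8 proliferation markers to 56.2 to 103 and 49.2 to 67.6 CPM. None of these markers was at 0 in all livers, and the calls by edgeR were Pecam1 (log2 fold change -0.77, SE 0.15, adjusted p = 0.0423), an endothelial adhesion molecule, and Cd8a (-0.84, SE 0.18, adjusted p = 0.0486), a coreceptor of cytotoxic T cells. At an unadjusted p under 0.05, 5 stellate cell, 4 endothelial, 3 macrophage, 3 cholangiocyte, 2 proliferation, 1 lymphocyte and 1 neutrophil markers were lower and 1 neutrophil marker was higher. By DESeq2, 4 stellate cell, 3 endothelial, 2 macrophage, 1 cholangiocyte, 1 proliferation and 1 lymphocyte markers were called lower and 0 higher. Genes with a known sex bias in liver, which respond to the pattern of growth hormone release, had medians of 0.92 over the 12 male-biased genes and 0.56 over the 9 female-biased genes tested, with 0 called in either list by edgeR. At an unadjusted p under 0.05, 5 and 2 of them were higher, and by DESeq2 2 and 1. The part of any of these cell types in the levels of the 3 genes was not tested.

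To see whether the difference extended along the chromosome, the 5 nearest genes on each side of each gene were read, among genes whose counts were used here. Of these 30 genes 24 were tested and 3 were called higher by edgeR and 3 by DESeq2, and 8 were higher at an unadjusted p under 0.05. By each of these criteria 0 were lower, with a median log2 fold change of 0.17. Over all 17032 genes tested, 1.79% were called higher by edgeR and 2208 were higher at an unadjusted p under 0.05. The 3 called were Nlrp6, Sirt3 and Afm, the last described above, and without sgCtrl liver 7.1 or sgPrdx2 liver 3.2 Nlrp6 and Sirt3 were called. Of the 7 tested neighbours of BC024139, 0 were called by edgeR, at an unadjusted p under 0.05 or by DESeq2, the one with the smallest p being Nrbp2 (0.31, SE 0.17, adjusted p = 0.304). Nrbp2 was also the nearest of them, 27889 bases away. Eppk1, which overlaps BC024139, was not among them, so its difference was not covered. With 10 genes on each side of the 3 genes, 38 were tested, and 5 were called higher and 0 lower. Of these Zfp707 lies beside BC024139, 143648 bases away (0.89, SE 0.16, adjusted p = 0.0409).

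Beside BC024386, 2 of 9 tested neighbours were called. Nlrp6, an innate immune sensor 12918 bases away, was read at 82.1, 72.2 and 62.8 CPM in the sgCtrl and 199, 176 and 187 CPM in the sgPrdx2 livers (1.37, SE 0.15, adjusted p = 0.0313), without overlap. Sirt3, a mitochondrial deacetylase 23704 bases away on the other side, rose less (0.84, SE 0.15, adjusted p = 0.0409). The nearest gene, Cox8b, a subunit of cytochrome c oxidase 5567 bases away, had 6 to 32 counts per liver and did not pass the test (1.16, SE 0.47, adjusted p = 0.177), and Psmd13 and Ric8a between and beyond these differed by 0.19 and -0.01. The reads of BC024386 per read of Nlrp6 were 1.23, 1.84 and 1.59 in the sgCtrl and 1.83, 1.85 and 1.58 in the sgPrdx2 livers, which overlapped. Per read of Sirt3 they were 1.66, 2.02 and 2.00 against 3.35, 3.48 and 2.60, without overlap.

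Beside 5830473C10Rik, Afm alone of 8 tested neighbours was called. Rassf6, 5204 bases away on the other side, differed by 0.38 (SE 0.12, adjusted p = 0.121). At an unadjusted p under 0.05, 4 of the 8 were higher and 0 lower. Gm43449, at 22 to 56 counts per liver, differed by 1.02 without overlap (SE 0.34, adjusted p = 0.126). Gm2602, 1687 bases away and at 21 to 76 counts per liver, differed by 0.85 with overlap (SE 0.35, adjusted p = 0.179).

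**Figure D3:**
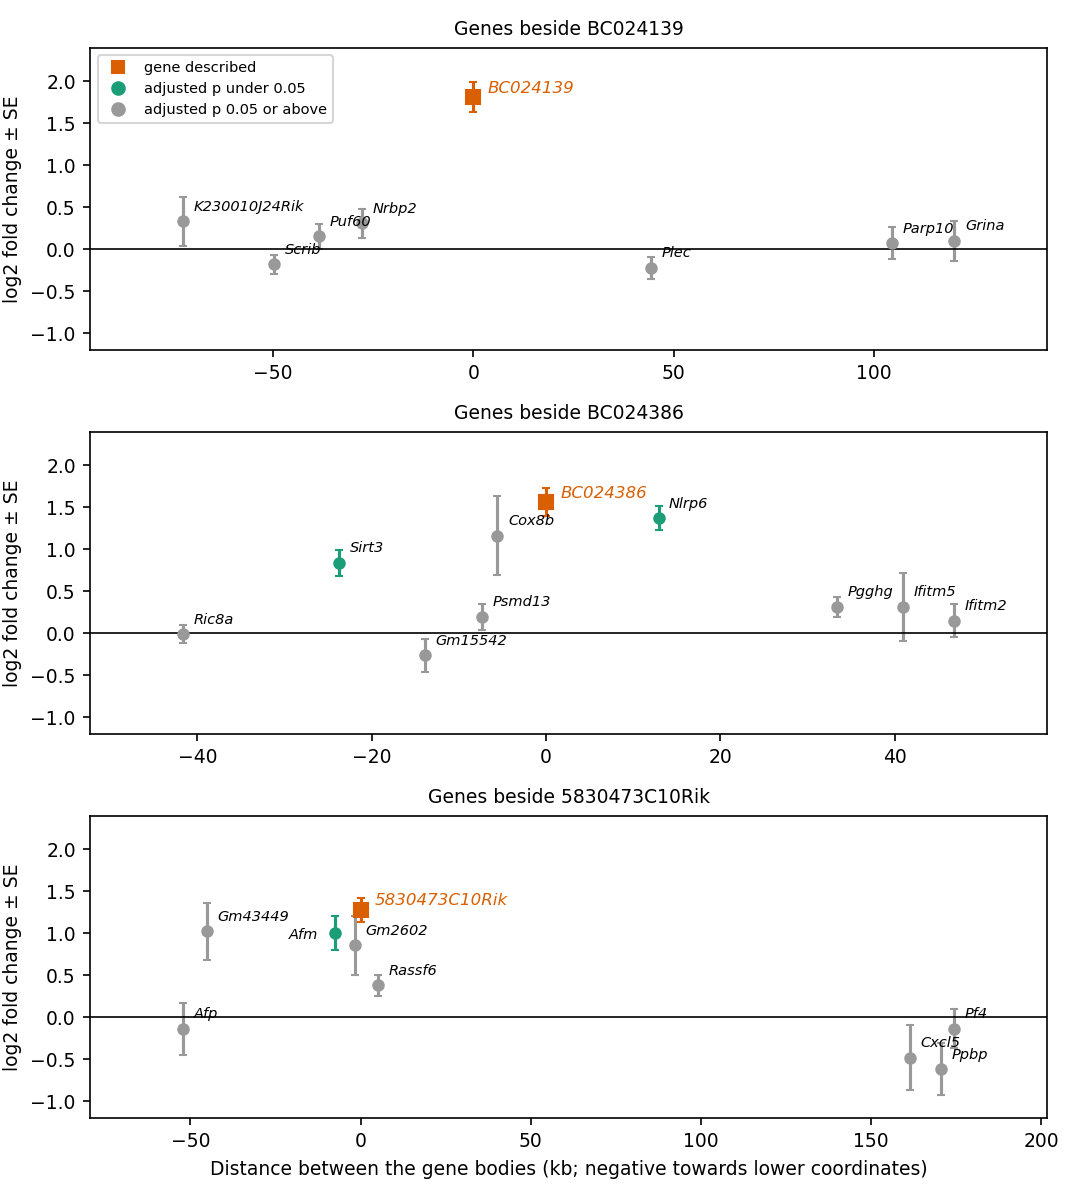
Log2 fold change with its SE of the tested genes beside each of the 3 genes (squares at 0), against the distance between gene bodies in kb, with genes at an adjusted p under 0.05 in green. The neighbours of BC024139 lie between -0.22 and 0.33, those of BC024386 include Nlrp6 at 1.37 and Sirt3 at 0.84, and those of 5830473C10Rik include Afm, the one in green there.

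How alike the 3 genes varied was described by correlation, over all livers and within the groups. Over the 6 livers Pearson's r of log2 CPM was 0.97 for BC024139 with BC024386, 0.99 for BC024139 with 5830473C10Rik and 0.97 for BC024386 with 5830473C10Rik, values to which the difference between the groups itself contributes. After subtraction of the group means r was 0.18, 0.74 and 0.33. The values 0.18 and 0.33 were those with BC024386, for which liver 3.2 was the lowest sgPrdx2 liver while it was the highest for the other 2. With 6 livers such values are imprecise, and their differences were not tested.

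The genes whose levels followed each of the 3 most closely, among 14122 genes at 1 CPM or more on average, were listed as a description over the same 6 livers. For BC024139 these were CT010460.2, 1810059H22Rik, the chloride channel gene Clcn2, the mitochondrial protein gene Chchd2 and the plasma protein gene Apoh (r from 0.997, and 0.92 to 0.99 after subtraction of the group means). For BC024386 they were Sec22c, Sh3yl1, Rgl3, the asparaginase gene Aspg and Tstd3 (r from 0.99, and 0.86 to 0.97). For 5830473C10Rik they were Cyp4f15, a cytochrome P450, 1190005I06Rik, Klkb1, which encodes plasma prekallikrein, Chchd2 and Bdh1, an enzyme of ketone body metabolism (r from 0.99, and 0.83 to 0.98). The values after subtraction of the group means belong to genes picked by r over the same livers. They follow in part from that choice and are no separate support. With so few livers many genes follow closely, and 420, 268 and 354 of the 14122 genes had r over 0.95 with the 3 genes in turn. Alb stood at place 45, 238 and 217 in these orders.

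The size of each difference depended on how the libraries were scaled. Scaled to total counts, the log2 fold changes were 1.43 for BC024139, 1.20 for BC024386 and 0.91 for 5830473C10Rik, and scaled to 6 housekeeping genes they were 1.42, 1.20 and 0.90. Those 6 genes were themselves higher by a median log2 fold change of 0.43 in the sgPrdx2 livers, 4 of them without overlap, with 0 called by edgeR, 3 at an unadjusted p under 0.05 and 3 by DESeq2. Scaled to the summed hepatocyte markers they were 0.86, 0.64 and 0.34. These scalings moved the median of all genes tested to -0.39, -0.39 and -0.95, and relative to that median the 3 genes differed by 1.81 to 1.83, 1.58 to 1.59 and at least 1.29 under all 6 scalings, as a change of scaling shifts all genes by about the same amount. Without liver 3.2 the values were 1.69, 1.65 and 1.23.

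**Figure D4:**
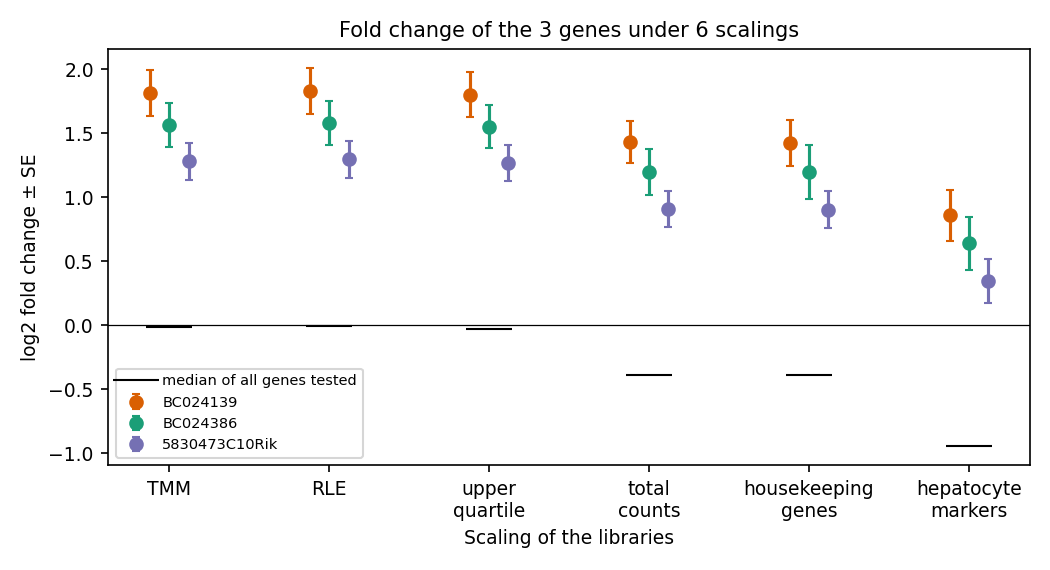
Log2 fold change with its SE of the 3 genes under 6 scalings of the libraries, with the median of all genes tested as a horizontal bar. A change of scaling shifts the 3 genes and the median by about the same amount, and the median falls to -0.39 with total counts or housekeeping genes and to -0.95 with hepatocyte markers.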

How the data were processed

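The 6 liver libraries were grouped by the sample labels, which name each as a biological replicate of its group. The authors deposited whole-number counts of reads per gene, without normalization, and the submitters' processing notes name HISAT2, HTSeq, DESeq2 and GRCm38. The annotation behind the counts and the strand setting are not given in the sources used here. A second table, which holds the authors' own comparison (mean, log2 fold change, SE, statistic and p-values), was not used.

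Counts were filtered by filterByExpr (minimum count 10), normalised by TMM and fitted with the quasi-likelihood test of edgeR 4.0.16 in R 4.3.3 over all 6 livers without covariates. Adjusted p-values are Benjamini-Hochberg values over all 17032 genes tested, and genes under 0.05 were called. The SE was taken as the log2 fold change over the root of its F statistic. The fit was tested on simulated data. DESeq2 1.42.0 was an alternative. RPKM used exon lengths of GENCODE M21, which also gave gene positions, and need not be the authors' annotation. Related proteins were searched with BLAST+ 2.17.0 among the longest reading frames of GENCODE coding transcripts, in place of the RefSeq proteins planned. Promoter windows came from RefSeq and matched 2 of the 3 genes and all 4 other family members.

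The 3 genes and the gene lists were chosen with earlier results of these data known. Genes named beside them are Prdx2, the albumin family, called neighbours or the one with the smallest p, the 5 genes most alike, and up to 3 genes with the smallest p per list. Gpx6, Pipox, Hnf4a, Cox8b, Gm2602, Psmd13 and Ric8a were named after their values were seen. Tf, on the hepatocyte marker list, was not used here, and the value of 1 other marker on that list is not reported here.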

Additional observations from a re-analysis of the deposited data

How the results depend on the processing

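The log2 fold changes of BC024139, BC024386 and 5830473C10Rik kept their direction, which the choice of the genes fixed, under all 14 alternatives and moved by less than 1 SD under 11 of them for each gene. The exceptions were total counts (1.43, 1.20 and 0.91), housekeeping genes (1.42, 1.20 and 0.90) and hepatocyte markers (0.86, 0.64 and 0.34), which rescale every gene. When each liver was left out in turn they ranged from 1.69 to 1.95, 1.48 to 1.71 and 1.19 to 1.37.

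Counts of calls were much less stable than these values. The 305 genes called higher and 262 called lower became 206 and 3041 with total counts, 116 and 1521 with housekeeping genes, 38 and 13111 with hepatocyte markers, 644 and 484 without a filter and 1162 and 886 with DESeq2. They ranged from 0 to 324 and from 0 to 295 when 1 liver was left out, and were 0 in 4 of the 6 cases, leaving calls only without sgCtrl liver 7.1 or sgPrdx2 liver 3.2. At an unadjusted p under 0.05 these 4 fits held 1609 to 2239 genes higher and 1484 to 1754 lower, against 2208 and 2033 with all livers. Each fit without 1 liver had fewer samples, those that kept calls included.

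Of the hepatocyte markers, 12 were called higher, against 1 with hepatocyte scaling and 0 to 6 with 1 liver left out. The hepatocyte scaling is made from these same markers, so the loss of their calls follows from it. Of the other genes with clone names, 18 were called higher, against 11 with total counts, 3 with housekeeping genes, 1 with hepatocyte markers, 33 without a filter, 64 with DESeq2 and 0 to 19 with 1 liver left out. Of the neighbours, 3 were called higher, against 1 with housekeeping genes, 0 with hepatocyte markers, 1 with 2 genes on each side, 5 with 10 genes on each side and 0 to 2 with 1 liver left out. Gc was called lower with hepatocyte scaling (-0.43) and higher with DESeq2 (0.53). Afp was called lower with hepatocyte scaling (-1.08), differed by -0.52 with total counts or housekeeping genes, and ranged from -0.37 to 0.10 with 1 liver left out. Under hepatocyte scaling the median of all genes tested was -0.95 and 13111 genes were called lower, so the lower calls of Gc and Afp are not particular to them. By Spearman's rho, 312, 90 and 77 genes tied at 1 with BC024139, BC024386 and 5830473C10Rik, so this measure gave no order of likeness. Causes were not tested. No paired analysis was possible because the mouse numbers of the 2 groups share no value. BC024386 and 5830473C10Rik had at least 1521 counts in every liver and BC024139 at least 162, so counting error is widest for BC024139.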
